A study of Mus musculus with 4 samples.

Results

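The proteasome genes were measured in whole adrenal glands of male, 2-month-old mice, with 2 arrays for the wild type and 2 for the V1a knockout (V1a_KO), named for the vasopressin receptor encoded by Avpr1a. Members were the genes of the array annotation whose symbol begins with Psma, Psmb, Psmc, Psmd, Psme or Psmg and a digit, except Psmb8 and Psmb9, and that had a probe set of their own. This gave 46 of the 18194 genes named on the array, read by 96 probe sets (sets of short probes for the same transcript), of which 65 were tested. The comparison asks whether the transcripts of the protein-degrading machine differ in the gland when the receptor is missing. The sources used here give neither the strain, nor the deleted part of Avpr1a, nor whether a sample was 1 animal or a pool. The p-values below therefore cover the spread among these samples alone, and that spread may be technical.

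The proteasome degrades proteins that carry ubiquitin chains. Its core particle is a barrel of alpha rings, which form the gate, around beta rings, which hold the cutting sites. The regulatory particle on its ends has a base, whose ATPases unfold the substrate, and a lid, which removes the ubiquitin. Dedicated chaperones assemble these parts, other activators can replace the regulatory particle, and under interferon the cutting subunits are exchanged for those of the immunoproteasome. In steroid-making cells as elsewhere, the machine turns over regulatory and damaged proteins.

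Of the 46 genes, 44 were tested, meaning that a probe set of theirs had 2 or more arrays at 4 log2 units or above. Psma8, a testis subunit of the alpha ring, and Psmb11, a thymus subunit of the beta ring, read between 2.304 and 2.69 on every array, near the lowest value of the arrays, and were not tested. Psme2, the partner of Psme1, shares its probe set with Psme2b and is not among the members; that probe set gave 11.03 and 10.23 for wild type and 10.50 and 10.46 for the knockout. By role, 7 tested genes belong to the alpha ring, 7 to the beta ring, 9 to the base, 8 to the lid, 3 to chaperones of the base, 4 to chaperones of the core, and 3 to activators, and Psmb10 belongs to the immunoproteasome. Psmc3ip, which acts in meiotic recombination, and Psme3ip1, a partner of Psme3, match the rule by symbol and are not proteasome subunits. Each gene is given by its tested probe set with the highest mean, in log2 units, and levels of different genes are not compared. None of the members lies on chromosome 10, which carries Avpr1a.

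The arrays were not alike. Wild-type array 1 correlated with the other 3 arrays at 0.919 to 0.924 across 17228 tested probe sets, and those 3 correlated with each other at 0.974 to 0.986. Differences are therefore also given without it. An SE or p-value without that array takes its residual spread from the knockout pair alone. Limma moderates that spread toward a prior drawn from all tested probe sets. Such an SE or p-value cannot be set beside one over all arrays. The tissue label was checked against markers: all 8 of the adrenal cortex list and the 6 measured ones of the chromaffin list passed the filter, with Star at 14.12 to 14.24 and Chga at 13.04 to 13.72. The mean level of the cortex list was 13.08 and 13.09 for wild type against 12.99 and 12.98 for V1a_KO, and that of the chromaffin list 12.38 and 11.56 against 12.19 and 11.33. Endothelial markers averaged 7.78 to 8.33 and kidney markers 3.40 to 3.79. Avpr1a read 2.31 to 2.60 on all arrays and so does not check the genotype labels. The level at the 3' end minus that at the 5' end, a sign of RNA integrity, ran from 2.12 to 2.63 for Actb and from 0.389 to 0.803 for Gapdh, and wild-type array 1 had the lowest value for Actb and the highest for Gapdh.

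In the knockout glands the mean of all 7 beta-ring genes was lower than in wild type, with differences of -0.58 to -0.17. That of 6 of the 7 alpha-ring genes was level or higher, by up to 0.47 in Psma5. Each gene was read from its probe set with the highest mean. With the mean of all probe sets of a gene, 6 beta-ring genes lay lower and 1, Psmb4, higher (0.83), with a median of -0.30 for the ring. The median differences, in log2 units, were -0.46 for the beta ring, 0.14 for the alpha ring, 0.06 for the base and -0.10 for the lid, and without wild-type array 1 they were -0.15, 0.06, 0.08 and -0.01. These medians were not tested, and limma was run on each probe set alone. By limma, 0 of the 44 members had an adjusted p under 0.05, as had 0% of the 10110 tested genes, and the smallest adjusted p among the members was 0.794. At an unadjusted p under 0.05, limma called 0 members lower, where 2.93% of all genes were, and 0 higher, where 2.14% were (5.06% in either direction). The rule of an unadjusted p under 0.01 together with a 2-fold difference or more took 0 members and 0.692% of all genes. The median difference, knockout minus wild type, was -0.11 over the members and -0.05 over all tested genes, and 27 members lay lower, where 56% of all genes did.

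Both knockout arrays lay below both wild-type arrays in 10 members, as in 20.5% of all tested genes, and above both in 6, as in 17.1%. After quantile normalization these counts were 10 and 9. With 2 arrays against 2, an exact two-sided permutation test of a single gene cannot go below p = 0.333, so a gap between the genotypes is a description. The wild-type arrays lay further apart than the knockout arrays: their absolute difference had a median of 0.31 over the members and reached 2.48, while that of the knockout arrays had a median of 0.07 and reached 0.40. The wild-type pair was the wider in 41 of 44 members and in 77.4% of all genes. Without wild-type array 1 the median over the members was 0.02, against 0.04 over all genes, and 13 of the 44 members changed sign. Both knockout arrays then lay below wild-type array 2 in 13 members, as in 31.9% of all genes, and above it in 18, as in 43.4%. Without wild-type array 2, which leaves array 1 as the only wild-type sample, the median was -0.26, with 17 members lower and 6 higher at an unadjusted p under 0.05, where 23.6% and 14.5% of all genes were; the smallest adjusted p of a member in limma was then 0.0770.

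**Figure D1:**
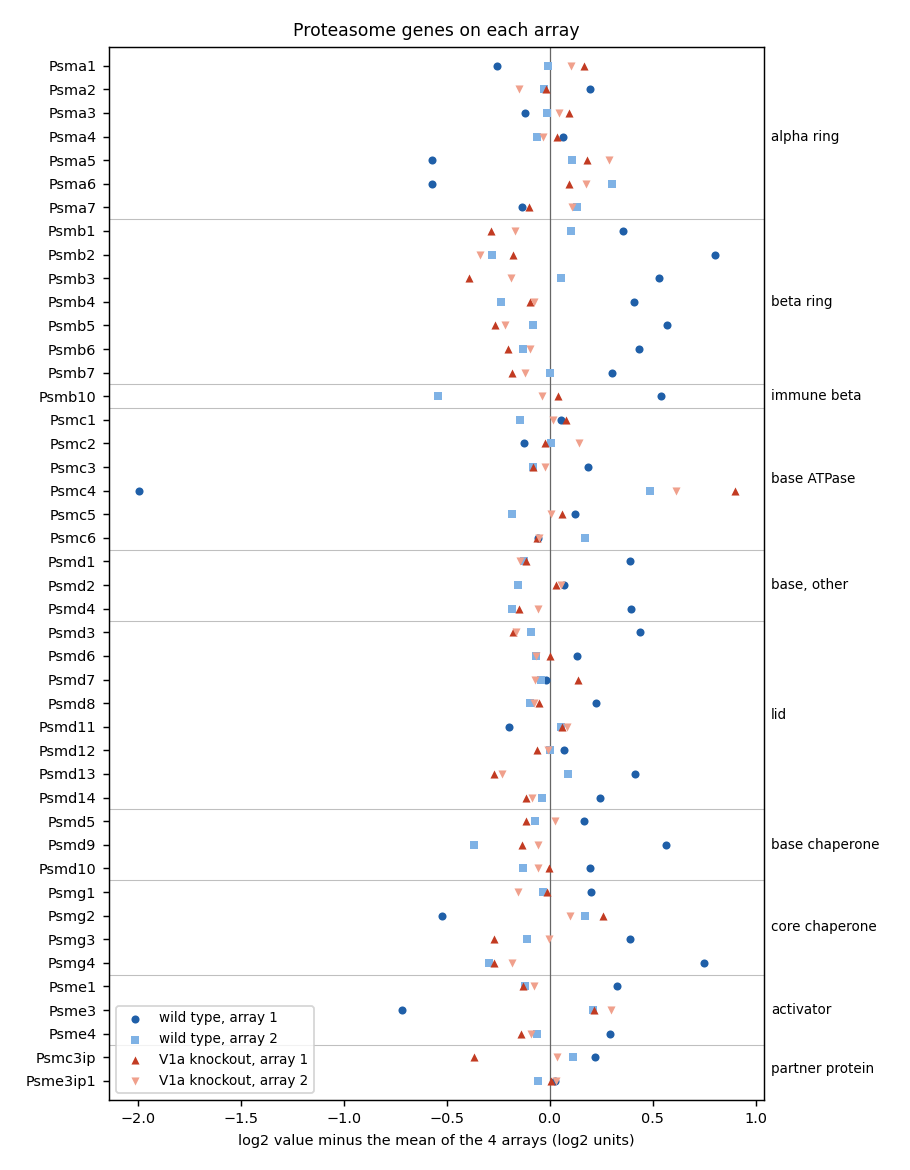
Each row is 1 of the 44 tested proteasome genes, grouped by role, and each symbol is 1 array: its log2 value minus the mean of the 4 arrays for that gene. Wild-type array 1 (dark circles) is the highest array in 30 genes and the lowest in 10, and the other 3 arrays mostly lie close together.

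Wild-type array 1 was the highest of the 4 arrays in 30 of the 44 members (68.2%) and the lowest in 10 (22.7%), where over all tested genes it was highest in 49.5% and lowest in 25.6%. Its place differed by subcomplex. It was the highest array in 7 of 7 beta-ring genes, in 3 of 3 non-ATPase genes of the base and in 3 of 3 chaperones of the base, but the lowest in 5 of 7 alpha-ring genes. Among the members this place also differed by the kind of probe set: wild-type array 1 was highest in 73.7% and lowest in 13.2% of the 38 plain member probe sets, and highest in 44.4% and lowest in 44.4% of the 27 whose suffix marks a possible match to several transcripts. Over all tested probe sets of 1 gene, that array was highest in 47.6% and lowest in 25.1% of the plain ones. Of the suffixed ones it was highest in 45.8% and lowest in 30.5%. Of the 5 alpha-ring genes, Psma3, Psma5, Psma6 and Psma7 were read from a suffixed probe set. The other probe sets of Psma5 and Psma7 had wild-type array 1 highest, and that of Psma6 had it between the others. As a median over the genes of a subcomplex, the offset of wild-type array 1 from the mean of the 4 arrays was 0.43 in the beta ring, 0.18 in the lid, 0.07 in the base and -0.14 in the alpha ring, and 0.13 over all tested genes. Wild-type array 2 had offsets of -0.08, -0.04, -0.13 and -0.01 in the same order, and the knockout arrays lay between -0.20 and 0.10.

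**Figure D2:**
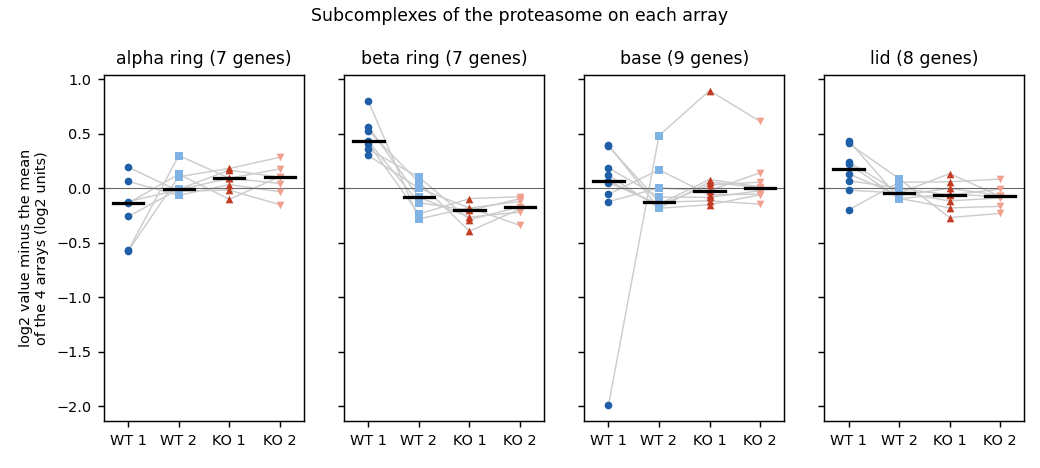
Log2 value minus the mean of the 4 arrays for the genes of the alpha ring, the beta ring, the base and the lid on the 2 wild-type (WT) and 2 knockout (KO) arrays; points are genes, grey lines join a gene, and black bars are medians. The median of the beta ring is 0.43 on wild-type array 1, -0.08 on wild-type array 2 and -0.20 and -0.17 on the knockout arrays.

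The differences of the 7 beta-ring genes ran from -0.58 in Psmb3 to -0.17 in Psmb4, and 5 of the 7 kept their direction without wild-type array 1. Psmb5, the subunit with the chymotrypsin-like cutting site (chr14:54614120-54617995, GRCm38.p6), had wild-type levels of 12.18 and 11.53 and knockout levels of 11.34 and 11.39. Both knockout arrays lay below both wild-type arrays, close to wild-type array 2 and far from wild-type array 1. The difference was -0.48 (SE 0.28, n = 2 per genotype, adjusted p = 0.794 in limma), and -0.16 without wild-type array 1. Psmb6, which carries the caspase-like site, gave 11.47 and 10.90 for wild type against 10.83 and 10.94 for V1a_KO. Here wild-type array 1 stood alone, wild-type array 2 fell between the knockout arrays, and the difference of -0.30 (SE 0.26) shrank to -0.02 without array 1. Psmb7, with the trypsin-like site (chr2:38588046-38643952), read 11.66 and 11.35 for wild type and 11.17 and 11.23 on the V1a_KO arrays. The genotypes did not overlap, and the difference was -0.30 (SE 0.19), or -0.15 without wild-type array 1.

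The other 4 subunits of the ring build the wall between the cutting sites. Psmb1 (chr17:15475721-15498276) had wild-type levels of 11.70 and 11.45 and knockout levels of 11.06 and 11.18, a difference of -0.46 (SE 0.18, unadjusted p = 0.0726, adjusted p = 0.794 in limma). Psmb3 (chr11:97703434-97713500) gave 12.00 and 11.53 for wild type against 11.08 and 11.28 for V1a_KO, a difference of -0.58 (SE 0.24, unadjusted p = 0.0789, adjusted p = 0.794 in limma). In both genes the 4 arrays fell in the same order, with wild-type array 1 highest, wild-type array 2 next and knockout array 1 lowest. They kept most of the gap without wild-type array 1, at -0.33 (SE 0.11) for Psmb1 and -0.35 (SE 0.15) for Psmb3, adjusted p = 0.431 and 0.467 in limma. Among the fat markers, Ucp1, known from brown fat, had the same order of arrays, with 10.05 and 7.24 for wild type and 2.80 and 5.91 for the knockout, and so had Cidea. Adipoq, Cidec and Fabp4, the other 3 tested, were highest on knockout array 2, and all 5 were lowest on knockout array 1. Over the 6 measured genes of the fat list the mean level was 8.40 and 7.14 for wild type and 5.45 and 7.38 for the knockout, with Lep at 2.304 on each array. The 5 genes of the liver list had mean levels of 7.08 and 3.35 for wild type and 2.46 and 2.48 for the knockout, Alb being at 8.86 on wild-type array 1 and at 2.42 to 2.43 on the others. Serpina1b, the 1 tested gene of that list, was high on both wild-type arrays, at 7.97 and 7.20, and at 2.304 on both knockout arrays. The part of these other cells in the beta-ring values was not tested. In whole glands, fewer cells of a type and less RNA per cell cannot be told apart.

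Psmb2 read 9.03 and 7.95 for wild type and 8.06 and 7.89 on the V1a_KO arrays, so that wild-type array 1 alone stood high and the difference of -0.52 (SE 0.43) went to 0.02 without it. Psmb4 read 12.49 and 11.84 against 11.98 and 12.00, a difference of -0.17 (SE 0.28) that turned to 0.15 without wild-type array 1. Over the ring, the knockout arrays lay below both wild-type arrays in 4 of 7 genes, as in 20.5% of all genes. Without wild-type array 1 both lay below wild-type array 2 in these 4, as in 31.9% of all genes, and above it in 1, as in 43.4%.

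The 250 bases before the start of beta-ring genes are shown because this ring had the median farthest from that of all genes among the subcomplexes, for the 3 genes whose listed window lies outside the annotated gene. They are from RefSeq on GRCm38.p6, 5' to 3' along the gene's strand, for Psmb3 (chr11:97703184-97703433, plus strand), Psmb4 (chr3:94886959-94887208, minus strand) and Psmb5 (chr14:54617996-54618245, minus strand), and capitals mark motif matches.
Psmb3: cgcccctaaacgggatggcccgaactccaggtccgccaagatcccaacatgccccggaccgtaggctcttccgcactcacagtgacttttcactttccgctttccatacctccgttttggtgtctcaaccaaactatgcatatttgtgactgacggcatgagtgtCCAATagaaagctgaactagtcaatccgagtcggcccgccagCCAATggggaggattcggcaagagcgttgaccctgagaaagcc
Psmb4: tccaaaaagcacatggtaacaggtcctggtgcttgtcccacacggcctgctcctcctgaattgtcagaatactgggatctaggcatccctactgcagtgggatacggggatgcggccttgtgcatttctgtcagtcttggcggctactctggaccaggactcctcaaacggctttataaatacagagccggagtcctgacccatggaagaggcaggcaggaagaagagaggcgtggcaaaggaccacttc
Psmb5: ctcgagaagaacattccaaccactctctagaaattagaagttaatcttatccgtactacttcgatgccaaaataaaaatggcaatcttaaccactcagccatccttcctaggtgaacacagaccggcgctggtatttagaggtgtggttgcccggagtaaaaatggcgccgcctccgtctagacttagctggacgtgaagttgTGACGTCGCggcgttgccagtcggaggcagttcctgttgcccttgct

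The motifs searched, on both strands and counting any match, were TGACNNNGC, the core of the antioxidant response element, to which the factor encoded by Nfe2l1 can bind, and CCAAT, the letters of the CCAAT box; a match was counted whether or not it overlapped another. Psmb5 held 1 match of the first, beginning at position -47 (the base before the start being -1), and Psmb3 held 2 matches of the second, at -85 and -43. The window of Psmb4 held neither. Of 38 members with a listed window, 5 held TGACNNNGC (13.2%), against 11.5% of 27025 genes, and 15 held CCAAT (39.5%), against 37.5%. The 5 genes with the first motif were Psmb5, Psmb6, Psmc6, Psmd9 and Psmd12. In the alpha ring 5 of 7 genes held CCAAT and 0 held TGACNNNGC. Of the 4 beta-ring genes with a listed window, 1 held CCAAT and 2 held TGACNNNGC. These counts by ring are small and were not tested.

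The alpha ring forms the gate of the barrel, and its differences ran from -0.17 in Psma2 to 0.47 in Psma5. Psma1 had wild-type levels of 10.90 and 11.15 and knockout levels of 11.32 and 11.26, a difference of 0.27 (SE 0.18) or 0.14 without wild-type array 1. Psma3 gave 11.80 and 11.91 for wild type against 12.02 and 11.97 for V1a_KO, a difference of 0.14 (SE 0.16) or 0.08 without wild-type array 1. Both knockout arrays were above both wild-type arrays in these genes, and wild-type array 1 was the lowest. Psma5 read 9.97 and 10.64 for wild type and 10.72 and 10.82 on the V1a_KO arrays, a difference of 0.47 (SE 0.29) that shrank to 0.13 without wild-type array 1. A second probe set of Psma5 had wild-type levels of 9.46 and 8.78 and knockout levels of 8.99 and 9.08, so that the array lowest on the first probe set was the highest on the second. Psma4 and Psma7 differed by 0.00 and 0.01, and Psma6 by 0.27, while Psma2, Psma4, Psma6 and Psma7 differed by -0.06, 0.06, -0.17 and -0.13 without wild-type array 1. With plain probe sets alone, available for 5 of the 7 genes, the median of the ring was -0.02.

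The base has 6 ATPases, the motor that unfolds substrates and opens the gate, with a median difference of 0.08 and 4 of 6 genes higher. Psmc4 was the 1 member at least 2-fold apart. It gave 8.86 and 11.34 for wild type against 11.75 and 11.47 for V1a_KO, a difference of 1.51 (SE 0.93, adjusted p = 0.794 in limma), and the low value was that of wild-type array 1. Without this array the difference was 0.27, and a second probe set of Psmc4 read 9.87, 9.44, 9.66 and 9.62, with wild-type array 1 the highest. Psmc2 read 12.30 and 12.43 for wild type and 12.40 and 12.57 on the V1a_KO arrays, a difference of 0.12 (SE 0.17), or 0.06 without wild-type array 1, with overlapping genotypes. Psmc1, Psmc3, Psmc5 and Psmc6 differed by 0.09, -0.11, 0.06 and -0.11, each less than its SE, and by 0.19, 0.03, 0.21 and -0.23 without wild-type array 1. Over the 9 genes of the base the median difference was -0.03 without wild-type array 2.

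Of the other genes of the base, Psmd1 and Psmd2 encode the large scaffolds. Psmd1 had wild-type levels of 10.74 and 10.22 and knockout levels of 10.24 and 10.21, and Psmd2 10.18 and 9.96 against 10.14 and 10.17. Their differences were -0.26 (SE 0.24) and 0.09 (SE 0.17), the latter 0.20 without wild-type array 1. In Psmd1 wild-type array 1 alone was high, and without it the difference was -0.003. Psmd4, a receptor for ubiquitin chains, gave 11.45 and 10.87 for wild type against 10.91 and 11.00 for V1a_KO, again with wild-type array 1 alone high. Its difference of -0.21 (SE 0.26) turned to 0.08 without that array. The second probe set of Psmd4 differed by 0.08 over all arrays.

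In the lid the median difference was -0.10 over 8 genes, with 6 lower and 2 higher. Psmd13, a lid subunit (chr7:140882394-140898642), had the smallest unadjusted p of all members. It read 9.13 and 8.80 for wild type and 8.45 and 8.49 on the V1a_KO arrays, a difference of -0.50 (SE 0.20, unadjusted p = 0.0666, adjusted p = 0.794 in limma). Both knockout arrays were lower than either wild-type array, the difference without wild-type array 1 was -0.34, and the second probe set of Psmd13 differed by -0.22. Psmd3 had wild-type levels of 8.87 and 8.34 and knockout levels of 8.25 and 8.27, a difference of -0.35 (SE 0.25) or -0.08 without wild-type array 1. Psmd14, the enzyme that cuts the ubiquitin chain from the substrate, gave 10.28 and 9.997 for wild type against 9.92 and 9.95 for V1a_KO, a difference of -0.20 (SE 0.19) or -0.06 without wild-type array 1. The genotypes of Psmd3 and Psmd14 did not overlap, and in both wild-type array 2 was close to the knockout arrays. The differences of Psmd6, Psmd7, Psmd8, Psmd11 and Psmd12 lay between -0.13 and 0.14, with no overlap in Psmd11 (0.14) and Psmd12 (-0.07), and between -0.04 and 0.08 without wild-type array 1.

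**Figure D3:**
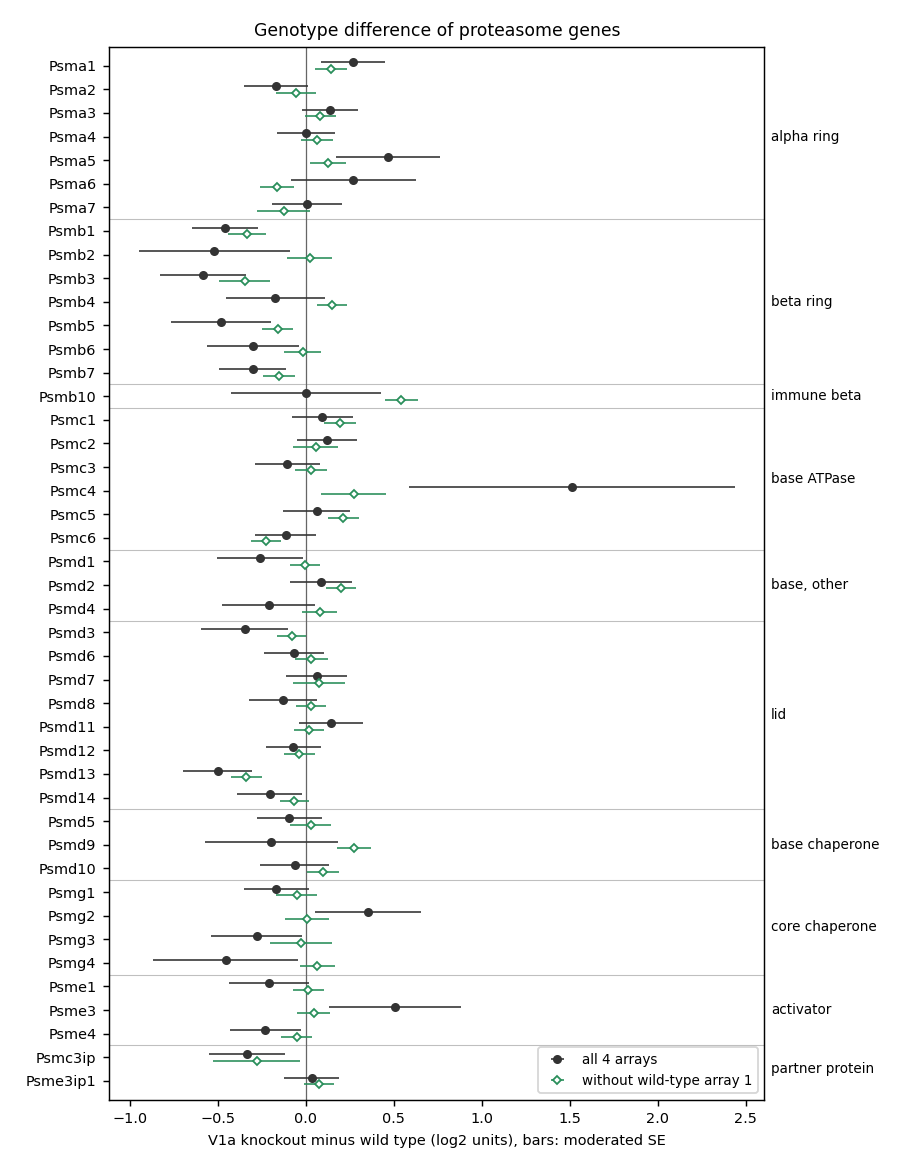
Knockout minus wild type in log2 units for the 44 tested genes, with limma's moderated standard error as bars, over all 4 arrays (filled circles) and without wild-type array 1 (open diamonds). The bars of the diamonds combine the spread of the knockout pair with limma's prior over all tested probe sets. Psmc4 moves from 1.51 to 0.27, while Psmb1, Psmb3 and Psmd13 lie at -0.33 to -0.35 without that array, each read from its probe set with the highest mean.

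In all 10 chaperones and activators, wild-type array 1 was the highest or the lowest of the 4 arrays. Over all tested genes it was the highest in 49.5% and the lowest in 25.6%. Psmg1, which pairs with Psmg2 to start the alpha ring, had wild-type levels of 8.95 and 8.72 and knockout levels of 8.74 and 8.60, a difference of -0.17 (SE 0.18). Psmg2 had 7.91 and 8.60 against 8.69 and 8.53, a difference of 0.35 (SE 0.30). In Psmg2 wild-type array 1 was low and the other 3 arrays were close. Psmg3 and Psmg4 form the other pair of core chaperones. Psmg3 had 6.74 and 6.24 for wild type against 6.07 and 6.34, a difference of -0.28 (SE 0.26), and Psmg4 had 6.37 and 5.33 against 5.35 and 5.44, a difference of -0.46 (SE 0.41). Wild-type array 1 alone was high in Psmg4, and without it the 4 genes differed by -0.05 to 0.07.

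Psmd5, Psmd9 and Psmd10, which hold the base ATPases during assembly, differed by -0.09 (SE 0.18), -0.20 (SE 0.38) and -0.06 (SE 0.20). Psmd9 read 7.55 and 6.62 for wild type and 6.85 and 6.93 on the V1a_KO arrays, the knockout arrays falling between the wild-type arrays. Psmd5 read 8.27, 8.03, 7.99 and 8.13 and Psmd10 8.49, 8.17, 8.29 and 8.24, with wild-type array 1 the highest in each. All 3 changed sign without it, to 0.03, 0.27 and 0.10.

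Psme1, a subunit of the interferon-induced activator, had wild-type levels of 11.19 and 10.75 and knockout levels of 10.73 and 10.79. Psme4, a large activator known from testis, gave 9.20 and 8.85 for wild type against 8.77 and 8.82 for V1a_KO. Their differences were -0.21 (SE 0.23) and -0.23 (SE 0.20), and 0.01 and -0.05 without wild-type array 1. The other tested probe sets of Psme4 differed by 0.13 and -0.01. Psme3, the nuclear activator, read 6.51 and 7.45 for wild type and 7.45 and 7.53 on the V1a_KO arrays, a difference of 0.51 (SE 0.38), or 0.04 without wild-type array 1, the 1 low array. Its second probe set read 7.20, 6.81, 6.66 and 6.81, with that array the highest. The 2 partner proteins differed by -0.33 (SE 0.22) in Psmc3ip, where the knockout arrays were both lower, and 0.03 (SE 0.16) in Psme3ip1. Without wild-type array 1 they differed by -0.28 and 0.08. The second probe set of Psmc3ip differed by 0.06 over all arrays.

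Psmb10, the trypsin-like subunit of the immunoproteasome, had wild-type levels of 7.83 and 6.75 and knockout levels of 7.33 and 7.25. The knockout arrays lay between the wild-type arrays, so the difference over 4 arrays was 0.00 (SE 0.43). Without wild-type array 1 it was 0.54 (unadjusted p = 0.0235, adjusted p = 0.417 in limma), the 1 member under an unadjusted p of 0.05 in that fit, where 12.1% of all genes were. Without wild-type array 2 it was -0.54. The 2 other immune subunits, which are not members, gave the same order of the wild-type arrays: Psmb8 gave 8.36 and 7.37 for wild type against 7.24 and 7.35 for V1a_KO, and Psmb9 7.12 and 6.07 against 6.44 and 6.46. Of the immune marker lists, all 7 macrophage genes were measured with a mean level of 7.36 and 7.86 for wild type against 7.81 and 8.33 for V1a_KO. Of these 7 genes, 3 had a lower and 4 a higher knockout mean. C1qb, read from a suffixed probe set, was at 6.31 on wild-type array 1 and at 9.97 to 10.54 on the others, which lowered the list mean of wild-type array 1. Of 7 lymphocyte genes on the array, 5 were under 3 log2 units on every array, Cd3e, Cd2 and Cd79a among them, and the mean level of the list was 3.43 to 4.08. Ighm read 8.85 and 5.98 for wild type and 9.65 and 9.39 on the V1a_KO arrays. Thy1, the other tested gene of that list, gave 7.76 and 6.28 for wild type against 6.37 and 5.69 for V1a_KO. Ighm was lowest on wild-type array 2, as was Psmb10, and Thy1 was lowest on knockout array 2. The part of these cells in the value of Psmb10 was not tested.

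Probe sets of the same gene often disagreed, and by more on wild-type array 1 than on the others. In 13 of the 17 members with more than 1 tested probe set (76.5%), the genotype difference had opposite signs between probe sets, against 48.3% of 3861 genes with several. For Psmb4, wild-type array 1 was at 12.49 on a probe set where the others were at 11.84 to 12.00, and at 9.03 on another where they were at 12.44 to 12.59. On wild-type array 1, the probe sets of Psmc6 differed from the mean of the other 3 arrays by -0.07, -0.94 and -2.89, and those of Psmd6 by 0.18 and -1.68. The gap between the probe sets of a gene in their offset on an array had a median of 0.66 for wild-type array 1 and of 0.26 to 0.36 for the other 3 arrays over the members, and 0.62 against 0.31 to 0.34 over all genes with several probe sets. Psmb3 and Psmd13 were among the 4 members whose probe sets all had the same sign, with differences of -0.58 and -0.34 and of -0.50 and -0.22. The others were Psmb1, whose second probe set was near the filter at 4.31 to 4.35, and Psmg2.

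**Figure D4:**
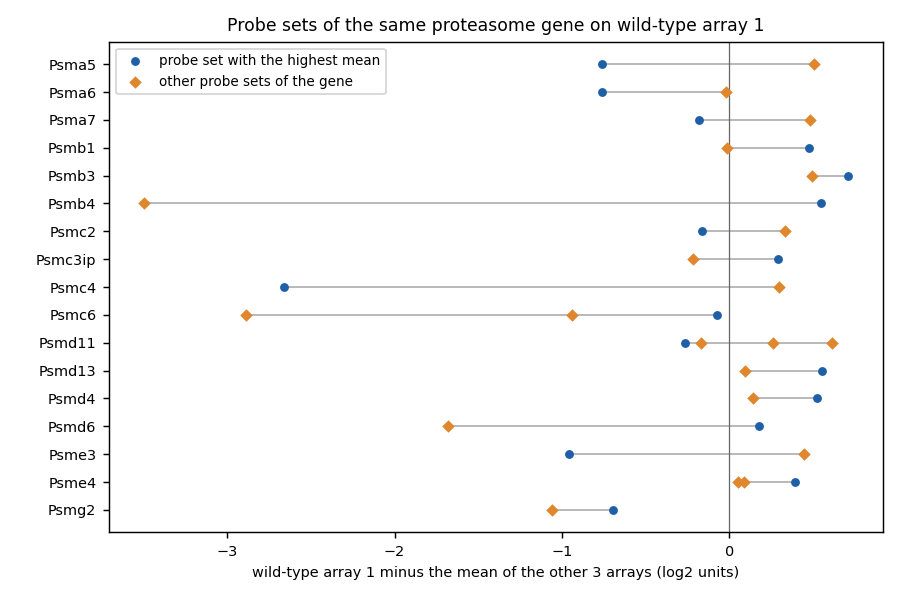
For the 17 members with more than 1 tested probe set, the value on wild-type array 1 minus the mean of the other 3 arrays, in log2 units, with circles for the probe set with the highest mean and diamonds for the others. Offsets run from -3.49 to 0.61 among the other probe sets and from -2.66 to 0.71 among those with the highest mean, and 5 probe sets lie at least 1 log2 unit low.

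Genes that supply or attach to the proteasome were read from 2 lists. Of 17 measured genes of associated and supply factors, 8 had a higher and 9 a lower knockout mean, with a median difference of -0.05. At an unadjusted p under 0.05 in limma was 1 of them, where 5.06% of all tested genes were. With probe sets averaged by gene, 0 of the 17 were. The 1 gene was Usp14, the deubiquitinase bound to the base, which had wild-type levels of 7.61 and 8.23 and knockout levels of 8.84 and 8.72. Both knockout arrays were higher, and the difference was 0.86 (SE 0.28, unadjusted p = 0.0391, adjusted p = 0.794 in limma) and 0.55 without wild-type array 1. Sem1, the small lid subunit, Nfe2l1, the factor that raises proteasome transcription, and Pomp, which matures the core, differed by -0.41 (SE 0.21), -0.38 (SE 0.24) and -0.28 (SE 0.19), with both knockout arrays lower in each, and by -0.25, -0.15 and -0.17 without wild-type array 1. Of 14 measured genes of ubiquitin supply and the p97 unfoldase, 10 had a higher and 4 a lower knockout mean, and the median was 0.14. At an unadjusted p under 0.05 were 0 of these 14, beside the same 5.06% of all genes. The 4 genes with the smallest p were the ubiquitin-conjugating enzymes Ube2n, Ube2d3 and Ube2d1, with differences of 0.35, 0.33 and 0.32, and the ubiquitin-activating enzyme Uba6 with 1.31, or 0.28 without wild-type array 1, the last with 6.39 and 8.45 for wild type against 8.71 and 8.75 for V1a_KO.

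Of 10 measured genes of the immunoproteasome and antigen presentation, Psmb8 and Psmb9 among them, 9 had a lower knockout mean, where 56% of all genes did. The median was -0.34, or -0.11 without wild-type array 1, and -0.15 over the 5 genes with plain probe sets. Wild-type array 1 was the highest array in 9 of the 10, as in 49.5% of all genes. At an unadjusted p under 0.05 in limma, 2 of the 10 were lower, where 2.93% of all genes were. H2-K1, a class I antigen-presenting molecule, gave 11.89 and 11.43 for wild type against 10.83 and 10.92 for V1a_KO, a difference of -0.78 (SE 0.23, unadjusted p = 0.0315, adjusted p = 0.794 in limma), and Tap2 and Irf1 differed by -0.39 and -0.45, or -0.14 and -0.15 without wild-type array 1. Tap1, which carries proteasome-made peptides into the endoplasmic reticulum, read 5.90 and 5.27 for wild type and 4.79 and 4.66 on the V1a_KO arrays, a difference of -0.87 (SE 0.28, unadjusted p = 0.0410, adjusted p = 0.794 in limma). In H2-K1, read from a suffixed probe set, and Tap1 the knockout arrays were lower than either wild-type array. This held in 5 of the 10 genes, and in 20.5% of all genes. The differences of H2-K1 and Tap1 without wild-type array 1 were -0.55 and -0.55. In that fit Psmb9 and Tapbp, a helper of peptide loading, lay on the other side, at 0.38 and 0.38.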

How the data were processed

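Values were 4 columns of log2 expression per probe set of Affymetrix Mouse Genome 430 2.0 arrays, deposited by the authors. Per the labels' protocols, GCRMA from Bioconductor 3.14 produced them, from messenger RNA with an integrity number of 8.0 to 9.0. The log2 scale was read from the values (lowest 2.304). GCRMA models background from probe sequence, normalizes between arrays and compresses differences near its floor. Its version is not given. The values were used as they stand, and 64 control probe sets were left out.

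The genotypes were compared in R 4.3.3 with limma 3.58.1 (lmFit and eBayes, no trend, no covariate). P-values were adjusted by Benjamini-Hochberg over the 17228 probe sets with 2 or more arrays at 4 log2 units or above. Residual degrees of freedom were 2, with 1.73 added by the prior, and each SE is the moderated standard error. Without wild-type array 1 the residual degree of freedom was 1, from the knockout pair. The number of arrays limits the precision. Genes were named from the platform annotation (34945 probe sets with 1 gene, 932 with several, 9160 with none), and placed on GRCm38.p6 by gene ID. The fit was tested on simulated data whose noise was independent and had the same spread on all 4 arrays. Those data held no outlying array, so the fit was not tested for the case of wild-type array 1. The members, lists and roles were chosen with earlier results of these data known. Named were the catalytic, scaffold, receptor, activator and chaperone genes in the text, in each role the members under an unadjusted p of 0.05 or otherwise the 2 with the smallest p, and members 2-fold apart. Promoter windows are RefSeq's. Alternatives were no filter or a filter at 6 log2 units, quantile normalization, median centring, trend and robust eBayes, plain probe sets, gene means over probe sets, the replicate block and each array left out. In each other list up to 4 genes with the smallest p were to be named. Other genes were named after their values were seen: the remaining alpha-ring, beta-ring, base and lid genes, and Cd3e, Cd2, Cd79a, Ighm, Thy1, C1qb, the fat and liver markers and Tapbp.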

Additional observations from a re-analysis of the deposited data

How the results depend on the processing

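Under every alternative run, 0 of the members passed the adjusted threshold. Over all probe sets 2 passed it (0 with the settings of the report) with a filter at 6 log2 units, quantile normalization, arrays centred on their medians or plain probe sets only. The count over all probe sets at an unadjusted p under 0.01 and 2-fold was 144. It was 78 without a filter, 94 with probe sets averaged by gene, 126 with the replicate number as a block, and 25 to 1497 when each array was left out in turn. Such a fit takes the spread of the lone array to be that of the other pair. The 94 counts genes, of 10110 tested, and is not to be set beside the 144 probe sets. Counted by gene with the settings of the report, 70 passed that rule, so averaging raised the count. Leaving out each array moved the members past that rule between 0 and 1 (Psmc4 without wild-type array 2), those under an unadjusted p of 0.05 between 0 and 17 lower and between 0 and 6 higher, all at an adjusted p above 0.05, and those without overlap (10 lower and 6 higher on all arrays) between 13 and 30 lower and between 8 and 18 higher. Over all genes, without overlap were 29.8% to 54.3% lower and 25.1% to 43.4% higher in these fits. With plain probe sets 4 members without overlap lay lower and 3 higher, of 35 tested, where 19.9% and 16.4% of all genes did.

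Leaving out each array gave median differences of -0.26 to 0.025 for the members, 0.065 to 0.19 for the alpha ring, -0.59 to -0.15 for the beta ring, -0.03 to 0.08 for the base, -0.23 to -0.0096 for the lid, -0.41 to 0.014 for activators, -0.41 to -0.0092 for core chaperones and -0.22 to 0.10 for base chaperones. With plain probe sets the alpha ring was at -0.023 and the activators at -0.012. With plain probe sets the beta ring was at -0.30, as with probe sets averaged by gene. Of the tested members, 5 changed sign with plain probe sets: Psma6 (-0.023), Psma7 (-0.20), Psmc2 (-0.044), Psmc4 (-0.018) and Psmc6 (1.20). With probe sets averaged by gene, 5 did: Psma7 (-0.095), Psmb4 (0.83), Psmc6 (0.44), Psmd6 (0.26) and Psmd11 (-0.061). Leaving out 1 array changed the sign of 13 members (without wild-type array 1), 6 (without wild-type array 2), 3 and 1 (without knockout arrays 1 and 2). These were Psma4 (-0.062 to 0.065), Psma6 (-0.17 to 0.71), Psma7 (-0.13 to 0.14), Psmb2 (-1.06 to 0.023), Psmb4 (-0.50 to 0.15), Psmb10 (-0.54 to 0.54), Psmc1 (-0.0059 to 0.19), Psmc3 (-0.24 to 0.029), Psmc5 (-0.089 to 0.21), Psmd2 (-0.027 to 0.20), Psmd4 (-0.50 to 0.078), Psmd5 (-0.21 to 0.027), Psmd6 (-0.17 to 0.032), Psmd7 (-0.043 to 0.17), Psmd8 (-0.29 to 0.030), Psmd9 (-0.66 to 0.27), Psmd10 (-0.22 to 0.098), Psme1 (-0.43 to 0.014), Psme3ip1 (-0.0076 to 0.076) and Psmg4 (-0.98 to 0.066). The cause of each change was not tested. The replicate numbers are shared by the genotypes, but nothing in the labels says that they pair animals. The difference of replicates 1 and 2 correlated at 0.15 between the genotypes, over probe sets, and the block changed no call of a member.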
